A study of Mus musculus with 6 samples.

Results

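The IGF axis was examined in mouse dermal fibroblasts with and without stabilized β-catenin, through a list of 10 genes chosen by name: the ligands Igf1 and Igf2, the receptors Igf1r and Igf2r, and the binding proteins Igfbp2, Igfbp3, Igfbp4, Igfbp5, Igfbp6 and Igfbp7. They are 10 of the 41126 genes in the mRNA table, and all 10 were among the 15462 genes with enough fragments to be tested. The choice was made with earlier results of these data known. RNA-seq was carried out on 6 cultures of ventral dermal fibroblasts from postnatal day 4 mice of mixed CD1 and C57Bl6 background, 3 Control and 3 GOF (gain of function). Control cultures received Adenovirus-GFP. GOF cultures received Adenovirus-Cre, which removes exon 3 from 1 allele of Ctnnb1 (Ctnnb1 Δex3/+) and so leaves a β-catenin that escapes degradation. If so, both groups were exposed to adenovirus but only GOF to Cre, and the effect of Cre itself cannot be told apart from that of β-catenin. The labels give +/+ for the Control genotype and Adenovirus-Cre at an MOI of 366 to 500 for 6 h as the treatment of every culture. By the paper's account, control cells carried the transgene too and were given Adenovirus-GFP. These accounts differ. Control replicates 0 and 2 came from animals that also gave a GOF culture, so their inherited genotype is that of the GOF cultures and not +/+. For Control replicate 1 the genotype cannot be told here. Which virus the Control cultures received cannot be told from the labels and was not tested, and their levels of a β-catenin target, Axin2, are given below. RNA was harvested 72 h after infection, although a shorter time is also given. The cultures came from 4 animals, of which 2 gave a culture to each group: Control replicate 0 and GOF replicate 2 share an animal, as do Control replicate 2 and GOF replicate 0. P-values here measure the spread between these cultures. The main test takes the 6 cultures as independent and ignores the shared animals, and a fit with animal as a block is given as an alternative.

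IGF1 and IGF2 are secreted growth factors that act mainly through the receptor tyrosine kinase IGF1R, whereas IGF2R binds IGF2 and carries it to lysosomes without a kinase signal. IGF binding proteins hold the ligands outside the cell, prolong their life and limit or deliver them to the receptor, and proteases such as PAPP-A release the ligand by cutting some of them. Dermal fibroblasts make IGF ligands and binding proteins, and the epidermis and hair follicles beside them respond to IGF signalling.

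Promoter sequences are shown for the pair of members that changed and for the ligand Igf1, whose measures differed with the unit used. Each is the window of 250 bases before a RefSeq transcription start on GRCm38.p6, written 5′ to 3′ along the strand of the gene. Capitals mark matches on either strand to CTTTGA, a core of Tcf/Lef sites, to TATAAA, or to GGGCGG, the GC box. The Igfbp2 window is chr1:72824230-72824479 on the plus strand, the Igfbp3 window chr11:7213924-7214173 on the minus strand, and the Igf1 window chr10:87860861-87861110 on the plus strand. The Igf1 window lies inside the annotated gene, which begins at base 87858265, so it precedes an internal start.
Igfbp2: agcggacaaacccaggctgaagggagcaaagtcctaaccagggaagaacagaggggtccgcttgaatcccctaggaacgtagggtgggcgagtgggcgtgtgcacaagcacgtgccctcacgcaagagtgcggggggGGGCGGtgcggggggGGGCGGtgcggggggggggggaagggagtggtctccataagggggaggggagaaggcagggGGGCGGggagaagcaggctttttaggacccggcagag
Igfbp3: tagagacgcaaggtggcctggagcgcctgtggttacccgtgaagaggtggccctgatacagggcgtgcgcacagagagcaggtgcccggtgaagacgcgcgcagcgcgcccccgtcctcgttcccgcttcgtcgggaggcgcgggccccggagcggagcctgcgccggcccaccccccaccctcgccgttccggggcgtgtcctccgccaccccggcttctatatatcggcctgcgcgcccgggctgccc
Igf1: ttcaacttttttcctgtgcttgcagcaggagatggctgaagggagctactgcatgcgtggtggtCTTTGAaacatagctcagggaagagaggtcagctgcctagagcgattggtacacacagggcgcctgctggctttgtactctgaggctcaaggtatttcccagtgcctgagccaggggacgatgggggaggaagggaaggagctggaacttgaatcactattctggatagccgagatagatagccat
The Igfbp2 window shown held 3 GC boxes, the Igf1 window 1 CTTTGA, and the Igfbp3 window none of these letters. A further Igfbp2 window, at chr1:72825137-72825386, held no match either. Across the 14 windows of the 10 members, CTTTGA was in 3 (of Igf1, Igf1r and Igf2) against 13.8% of 32851 windows of all genes. TATAAA was in 2 member windows (of Igfbp4 and Igfbp6) against 12.4% of all windows, and GGGCGG in 6 against 32.7%. These are matches of letters, not binding measured in these cells.

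The libraries held 35980831 to 42834467 fragments in the mRNA table. Axin2, a transcriptional target of β-catenin, had 0.144, 0.136 and 0.177 FPKM in Control replicates 0, 1 and 2 and 19.2, 14.4 and 18.7 in GOF replicates 0, 1 and 2, a difference of 6.98 on the log2 scale (SE 0.26). FPKM scale fragments by transcript length and library size and so give a level per length. Ctnnb1 itself stood at 254 to 285 FPKM in Control and 246 to 297 in GOF, which counts the whole gene and does not read the loss of exon 3. Of the 9 fibroblast markers, Col1a2 and Dcn were lower in GOF and the other 7 were not called, with a summed level of 3066 to 3896 FPKM in Control and 2533 to 3104 in GOF. All 6 keratinocyte markers stayed under 1 FPKM. The summed markers of skeletal muscle were 23.3 to 27.6 FPKM in Control and 138 to 172 in GOF. Nearly all of that sum was Acta1, at 22.7 to 26.4 and 137 to 171 FPKM, while Des was not called, Myod1, Myog and Myh3 were at most 0.192 FPKM and Pax7 was at 0. The adipocyte sum, 7.18 to 8.95 in Control and 1.8 to 3.17 in GOF, was likewise nearly all Fabp4, at 7.17 to 8.88 and 1.77 to 3.08 FPKM, with Lep at 0. The macrophage sum was 2.51 to 3.44 and 4.38 to 7.62, with Csf1r the 1 marker called (1.52 on the log2 scale). The endothelial sum was 3.25 to 4.08 and 2.98 to 4.69, with Kdr called higher (1.77) and Tek lower (-2.27). The sum for pericytes or smooth muscle was 14.3 to 23.0 and 16.8 to 33.1. In bulk cultures fewer cells of a type and less RNA per cell cannot be told apart, and the part of these markers in the differences of IGF genes was not tested.

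The members called in GOF cultures were both binding proteins. Igfbp2 rose 12.6-fold and Igfbp3 fell 6.47-fold, while neither ligand, neither receptor and none of Igfbp4, Igfbp5, Igfbp6 and Igfbp7 passed the test. A gene was called when edgeR's adjusted p was under 0.05 and the fold change over 2. Of the 10 members, 2 were called, where 12.3% of all genes tested were called, 6.69% higher and 5.64% lower. With animal as a block, a fit that leaves 1 residual degree of freedom, 4 members were called, Igfbp5 and Igfbp6 being added. The share of all genes called in that fit is not given here, so its count cannot be set against the 12.3%. The median difference over the 10 members was -0.25 on the log2 scale, against -0.02 over all genes tested. FPKM did not overlap between groups for 5 members (Igf1, Igfbp2, Igfbp3, Igfbp5 and Igfbp6), against 39.5% of all genes. An exact permutation test of FPKM gave p = 0.1 for each of those 5, which is the smallest p that 3 against 3 cultures allow.

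**Figure D1:**
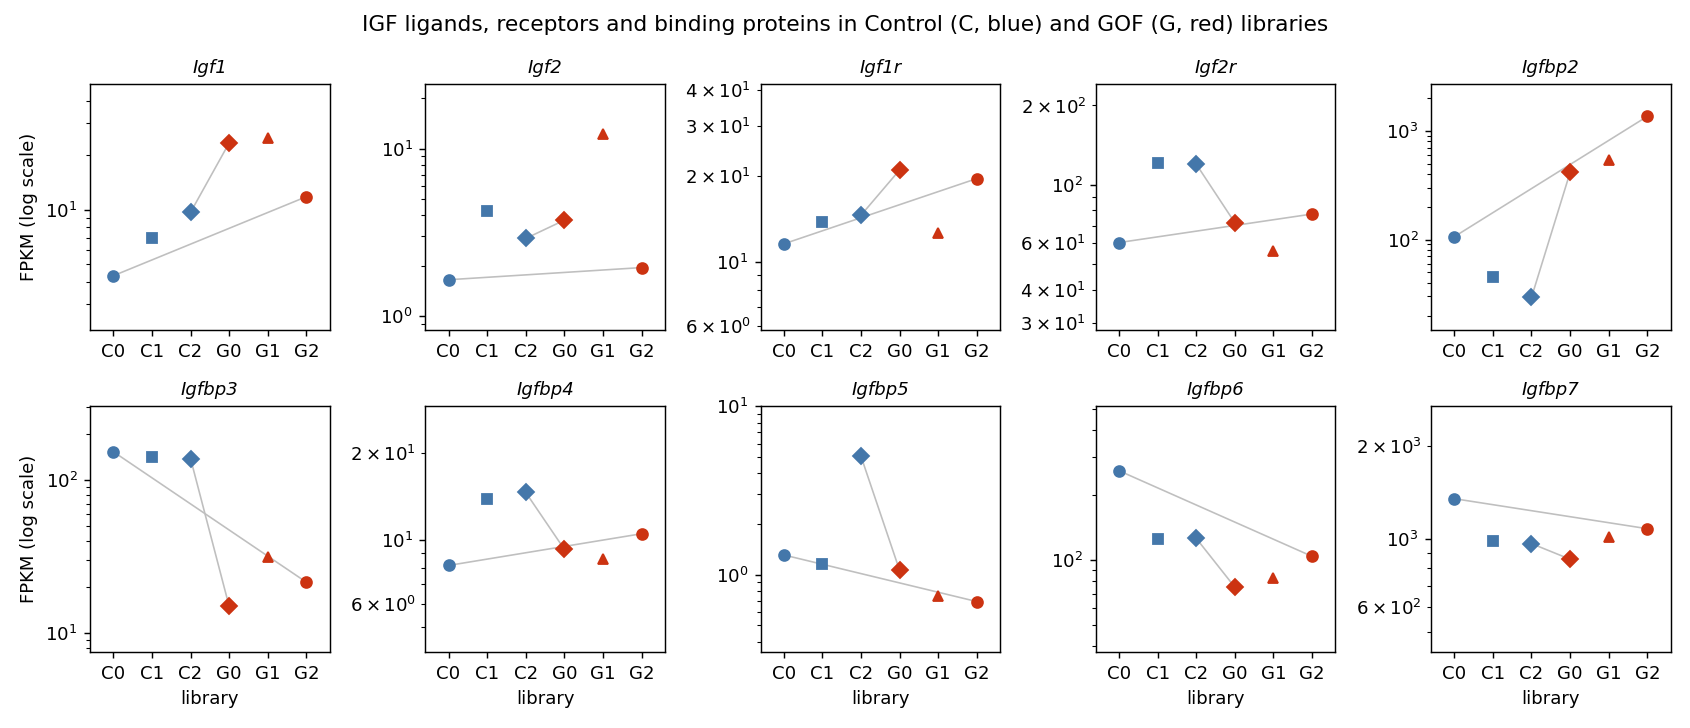
FPKM of the 10 members on a log axis, 1 point per library, with marker shapes for animals and grey lines joining cultures of the same animal. Igfbp2 lies at 29.3 to 106 in Control and 414 to 1358 in GOF, and Igfbp3 at 138 to 153 and 14.9 to 31.4.

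**Figure D2:**
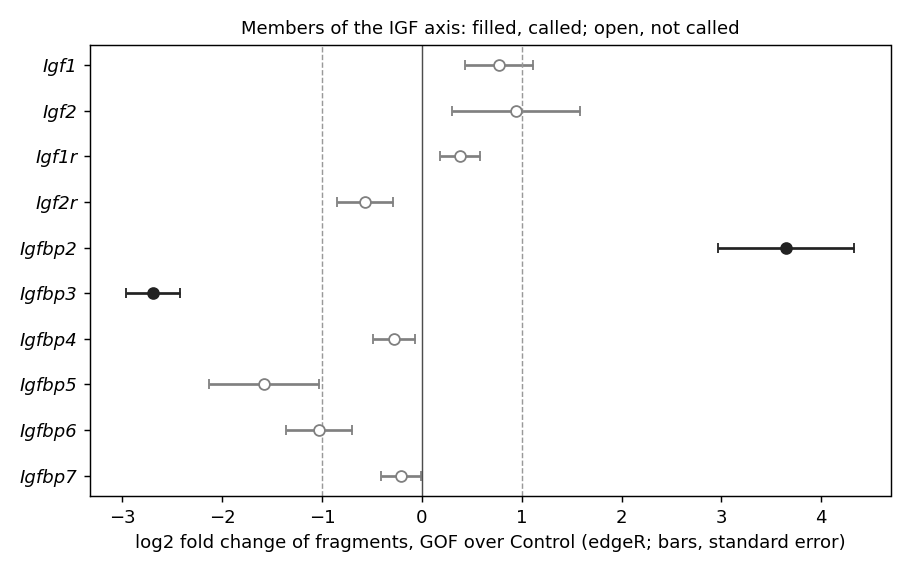
Log2 fold change of GOF over Control with its standard error for each member by edgeR, filled where called, with dashed lines at a fold of 2. Igfbp2 (3.65) and Igfbp3 (-2.69) are the filled points, and Igfbp5 (-1.58) and Igfbp6 (-1.03) lie past a fold of 2 without passing the adjusted p.

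Igf1 (chr10:87858265-87937042, plus strand, mm10) encodes the ligand that growth hormone regulates in liver and that many tissues make locally. Its levels in Control replicates 0, 1 and 2 were 4.31, 6.98 and 9.66 FPKM, and in GOF replicates 0, 1 and 2 they were 23.4, 24.9 and 11.8 FPKM. Every GOF culture lay above every Control culture, with the closest pair being Control replicate 2 and GOF replicate 2. The mean was 6.98 ± 2.68 FPKM in Control and 20.0 ± 7.18 in GOF (SD, n = 3 each). On estimated fragments the difference was 0.77 on the log2 scale (SE 0.34, edgeR adjusted p = 0.157), so Igf1 was not called.

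The measures of Igf1 gave different sizes of change. In fragments scaled to a library size of 1e+06 (called scaled fragments here), Igf1 had 24.1, 41.6 and 56.9 in Control and 76.9, 86.2 and 40.4 in GOF, and on this scale GOF replicate 2 fell within the Control range. The difference between group means of log2 values was 1.52 by FPKM and 0.74 by scaled fragments. After each library's median gene was taken as reference this gap was 0.73, and a gap as large in either direction occurred in 0.313% of 15343 genes. FPKM per fragment, on the log2 scale relative to the median gene, was -1.07, -1.08 and -1.11 in Control and -0.30, -0.34 and -0.43 in GOF, with little spread inside a group. The gaps of the other 9 members were between -0.11 and 0.05. With limma on log2(FPKM + 1) the Igf1 difference was 1.39 with an adjusted p of 0.0283, past both thresholds. Isoform levels were not analysed here, and the cause of the gap was not tested.

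**Figure D3:**
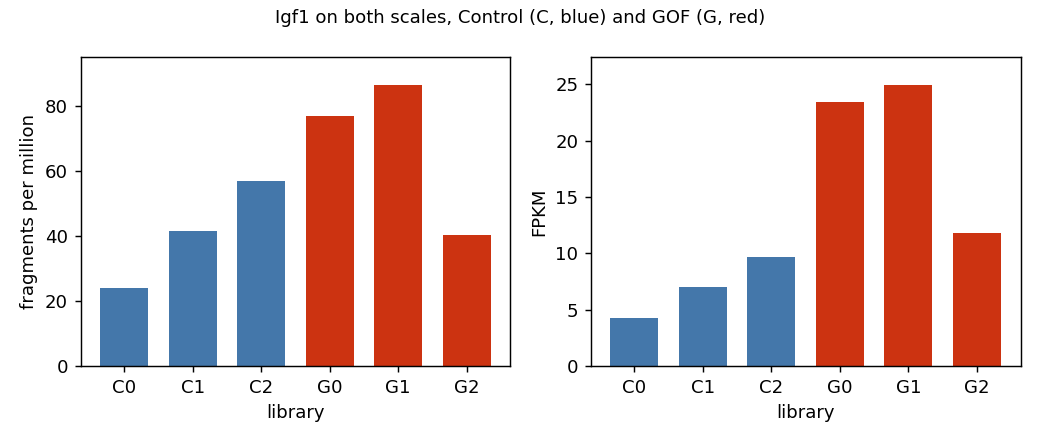
Igf1 in each library as scaled fragments and as FPKM. The groups overlap in scaled fragments, where GOF replicate 2 stands at 40.4 among Control values of 24.1 to 56.9, and not in FPKM.

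Igf2 (chr7:142650766-142666816, minus strand) is the imprinted, mainly foetal ligand. Its level was 1.65, 4.22 and 2.91 FPKM in the Control replicates and 3.74, 12.2 and 1.95 FPKM in the GOF replicates. GOF replicate 1 stood alone at the top, and the other GOF cultures lay inside the Control range. Means were 2.93 ± 1.28 and 5.97 ± 5.49 FPKM (SD, n = 3 each), and the log2 difference was 0.94 (SE 0.64, adjusted p = 0.335). Without GOF replicate 1 it was 0.00 (adjusted p = 0.997). Of its 5723 exonic bases, 3596 are shared with Gm49394 on the same strand and 98 with Igf2os on the other. Gm49394 had no entry in the mRNA table, and Igf2os was at most 0.0158 FPKM in any library. Whether any fragments of Gm49394 were counted as Igf2 was not tested.

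Neither ligand was called, and none was called by DESeq2 or at an unadjusted p under 0.05. Only limma on FPKM called Igf1, at 1.39 on log2(FPKM + 1) and 1.51 on log2(FPKM + 0.1) (adjusted p = 0.0283 and 0.0241). With animal as a block Igf1 differed by 0.63 with an adjusted p of 0.0257, under a fold of 2. The genes whose levels followed Igf1 most closely over the 6 libraries, among 11145 protein-coding genes, were Ermp1 (Pearson r = 0.998 on log2(FPKM + 1)), Cd9 (0.996) and Grem1 (0.996), a secreted BMP antagonist. Grem1 had 49.5, 106 and 146 FPKM in Control and 407, 489 and 197 in GOF, with GOF replicate 2 again nearest to the controls. For Igf2 they were Sec61a2 (0.977), Ybey (0.973) and Mgst2 (0.966), and Mgst2 was 0.845, 1.05 and 1.09 FPKM in Control and 1.1, 2.32 and 0.731 in GOF. These correlations rest on 6 points that share groups, animals and depth, and they describe likeness of pattern only.

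Igf1r (chr7:67952827-68233668, plus strand), the signalling receptor, had 11.6, 13.8 and 14.6 FPKM in Control and 21.0, 12.7 and 19.6 in GOF. GOF replicate 1 was inside the Control range and the other GOF cultures were above it. On the log2 scale the groups differed by 0.38 (SE 0.20, adjusted p = 0.223), and without GOF replicate 1 it was 0.58 with an adjusted p of 0.037, still under a fold of 2. With animal as a block the difference was 0.64 with an adjusted p of 0.0181, also under a fold of 2.

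Igf2r (chr17:12682406-12769664, minus strand), the scavenging receptor, is another imprinted gene. It had 60.4, 121 and 119.8 FPKM in Control and 71.8, 56.2 and 77.5 in GOF. Control replicate 0 lay with the GOF cultures and the other controls above them. The log2 difference was -0.57 (SE 0.28, adjusted p = 0.199), and without Control replicate 0 it was -0.85 with an adjusted p of 0.0124, under a fold of 2. Of the receptors 0 were called, also by DESeq2 or at an unadjusted p under 0.05. The ratio of Igf2r to Igf1r in FPKM was 5.21, 8.74 and 8.18 in Control and 3.41, 4.43 and 3.95 in GOF, so the ratio did not overlap although each receptor alone did. Single genes did not overlap in 39.5% of cases, and this ratio was neither planned nor tested.

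Igfbp2 (chr1:72824503-72852474, plus strand) encodes a binding protein with a preference for IGF2 that also carries an integrin-binding motif. Its level was 106, 45.6 and 29.3 FPKM in Control and 414, 541 and 1358 FPKM in GOF. The lowest GOF culture was well above the highest Control culture, and both groups were wide. Control replicate 0 and GOF replicate 2, the highest culture of each group, came from the same animal. Means were 60.3 ± 40.3 and 771 ± 512 FPKM (SD, n = 3 each), and the log2 difference was 3.65 (SE 0.68, adjusted p = 0.00901). Leaving out 1 library at a time gave 2.84, without GOF replicate 2, to 4.33, without Control replicate 0. Igfbp2 was called in all 15 alternatives.

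Igfbp3 (chr11:7206086-7213923, minus strand) encodes the main IGF carrier of serum. It had 153, 142 and 138 FPKM in Control and 14.9, 31.4 and 21.4 in GOF. The controls were tight, at 144 ± 7.69 FPKM, and the GOF cultures were all far below, at 22.6 ± 8.33 (SD, n = 3 each). The log2 difference was -2.69 (SE 0.27, adjusted p = 0.00087), and it was -3.03 to -2.46 when libraries were left out in turn. Igfbp3 was called in all 15 alternatives. The ratio of Igfbp2 to Igfbp3 in FPKM was 0.693, 0.321 and 0.213 in Control and 27.7, 17.2 and 63.5 in GOF, so the order of the pair was turned in every GOF culture. As this ratio joins genes called in opposite directions, it restates those calls, and it was neither planned nor tested.

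Igfbp5 and Igfbp6 were lower in every GOF culture than in every Control culture but were not called. Igfbp5 (chr1:72857932-72874884, minus strand), which binds matrix and bone mineral, had 1.31, 1.15 and 5.05 FPKM in Control and 1.06, 0.745 and 0.692 in GOF. Control replicate 2 was far above all others, and the remaining controls were close to GOF replicate 0. The log2 difference was -1.58 (SE 0.55, adjusted p = 0.0815), and without Control replicate 2 it was -0.58. Without Control replicate 0 the difference was -1.90 and was called, with an adjusted p of 0.0481. Igfbp5 lies 5457 bases from Igfbp2, on the other strand.

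Igfbp6 (chr15:102144362-102149511, plus strand), a binding protein that prefers IGF2, had 259, 125 and 126 FPKM in Control and 74.9, 82.3 and 104 in GOF. Control replicate 0 stood above the other controls, and all GOF cultures were below the controls. The log2 difference was -1.03 (SE 0.33, adjusted p = 0.0636), and without Control replicate 0 it was -0.58. Without Control replicate 2 it was -1.23 and was called, with an adjusted p of 0.046. DESeq2 called Igfbp5 and Igfbp6 lower, with adjusted p of 0.00826 and 0.0129, as did the edgeR fit with animal as a block, at -1.61 (adjusted p = 0.0149) and -1.01 (adjusted p = 0.00663).

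Igfbp4 (chr11:99041244-99054392, plus strand), the main substrate of PAPP-A, had 8.15, 13.9 and 14.6 FPKM in Control and 9.27, 8.61 and 10.5 in GOF. The GOF cultures lay between Control replicate 0 and the other controls. On the log2 scale the difference was -0.28 (SE 0.21, adjusted p = 0.375), and without Control replicate 0 it was -0.50 with an adjusted p of 0.02, under a fold of 2. Igfbp7 (chr5:77349240-77408041, minus strand), a relative that binds IGF weakly, had the highest mean FPKM of the members in each group, with 1346, 985 and 963 FPKM in Control and 857, 1012 and 1076 in GOF. In GOF replicate 2 Igfbp2 stood above it. The groups of Igfbp7 overlapped, with a log2 difference of -0.21 (SE 0.20, adjusted p = 0.503). It shares 85 of its 1209 exonic bases with Polr2b on the other strand, which had 28.4 to 37.7 FPKM.

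By mean FPKM the controls ordered the members as Igfbp7, Igfbp6, Igfbp3, Igf2r, Igfbp2, Igf1r, Igfbp4, Igf1, Igf2 and Igfbp5. The ranges of Igfbp6 and Igfbp3 overlapped, as did those of Igf2r and Igfbp2, of Igf1r, Igfbp4 and Igf1 in succession, and of Igf2 and Igfbp5. In GOF the order was Igfbp7, Igfbp2, Igfbp6, Igf2r, Igfbp3, Igf1, Igf1r, Igfbp4, Igf2 and Igfbp5. The overlapping neighbours there were Igfbp7 with Igfbp2, Igfbp6 with Igf2r, Igfbp3 with Igf1 and Igf1 with Igf1r, and Igfbp4 with Igf2.

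The binding proteins share their ligands, so their levels were also summed per library. The sum of Igfbp2 to Igfbp7 was 1873, 1312 and 1276 FPKM in Control and 1371, 1677 and 2570 FPKM in GOF, and the groups overlapped. Igfbp2 made up 5.65%, 3.47% and 2.30% of the sum in Control and 30.2%, 32.3% and 52.8% in GOF. Igfbp3 made up 8.16%, 10.8% and 10.8% in Control and 1.09%, 1.87% and 0.832% in GOF. The share of Igfbp7 was 71.9%, 75.1% and 75.5% in Control and 62.5%, 60.4% and 41.9% in GOF, and that of Igfbp6 averaged 11.1% and 4.80%. Shares of a sum are tied, so a larger share of Igfbp2 lowers the rest. The level of Igfbp7 itself differed by -0.21 on the log2 scale and was not called (edgeR adjusted p = 0.503). Without Igfbp7, which binds IGF weakly, Igfbp2 was 20.1%, 13.9% and 9.37% of the remainder in Control and 80.5%, 81.5% and 90.9% in GOF. In the controls Igfbp6 and Igfbp3 together formed most of that remainder, and in GOF Igfbp2 did. These shares are of transcript levels and do not measure protein.

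**Figure D4:**
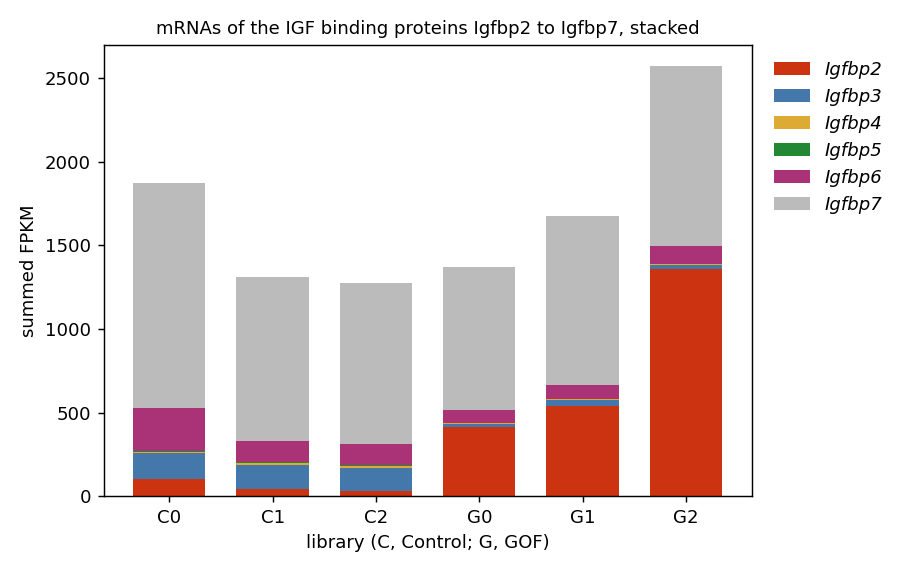
Summed FPKM of Igfbp2 to Igfbp7 in each library, stacked by gene. Igfbp7 is the largest block in every library but GOF replicate 2, where Igfbp2 is 52.8% of the sum and Igfbp7 41.9%.

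In the pair of animals that gave cultures to both groups, the log2 ratio of FPKM of GOF over Control was 3.82 and 3.68 for Igfbp2, and -3.21 and -2.84 for Igfbp3. The first value of each pair is GOF replicate 0 over Control replicate 2 and the second GOF replicate 2 over Control replicate 0. Within animals Igf1 was 1.27 and 1.45, Igfbp5 -2.25 and -0.92, and Igfbp6 -0.75 and -1.32. The values of Igf2r (-0.74 and 0.36) and Igfbp4 (-0.66 and 0.37) had opposite signs in these animals. The values were 0.52 and 0.76 for Igf1r, 0.36 and 0.24 for Igf2, and -0.17 and -0.32 for Igfbp7.

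Regulators of the IGF axis outside the members were taken from a list of 24 genes, of which 17 were tested. 3 were called higher (Stc1, Stc2 and Grb14) and 4 lower (Pappa, Pappa2, Grb10 and Irs3), where 6.69% and 5.64% of all genes were. This list was chosen with earlier results of these data known, so its counts cannot show an enrichment. At an adjusted p under 0.05 with any fold there were 8, where 21.2% of all genes passed that test. The median over the 17 was -0.16 on the log2 scale, and 11 did not overlap between groups, against 39.5% of all genes. With animal as a block edgeR also called 7, but not the same ones: H19 was added, as was Irs1, named here after its values were seen, while Irs3 (-1.06, adjusted p = 0.111) and Grb14 (0.92, adjusted p = 0.0116, under a fold of 2) were not called.

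Of the 3 proteases on the list Pappa and Pappa2 were called lower and Htra1 was not called, and both inhibitors of PAPP-A were called higher. Pappa encodes PAPP-A, the secreted protease that cuts IGFBP4, and Pappa2 its relative that cuts IGFBP3 and IGFBP5. Pappa had 28.5, 51.3 and 44.5 FPKM in Control and 19.2, 12.8 and 16.7 in GOF, a log2 difference of -1.36 (SE 0.24, adjusted p = 0.00777). Pappa2 was much less abundant, with 1.73, 2.47 and 2.13 FPKM in Control and 0.156, 0.118 and 0.188 in GOF, a log2 difference of -3.74 (SE 0.28, adjusted p = 0.000296). For each protease all GOF cultures were below all controls. Stc1 and Stc2 encode stanniocalcins, secreted inhibitors of PAPP-A. Stc1 had 0.53, 0.489 and 0.652 FPKM in Control and 94.9, 73.8 and 36.9 in GOF, a log2 difference of 6.95 (SE 0.44, adjusted p = 0.000181). Stc2 had 1.84, 1.33 and 1.45 FPKM in Control and 3.85, 3.26 and 3.38 in GOF, a log2 difference of 1.31 (SE 0.15, adjusted p = 0.00149). The inhibitors were thus higher in every GOF culture. The ratio of Stc1 to Pappa in FPKM was 0.0186, 0.00954 and 0.0147 in Control and 4.93, 5.77 and 2.20 in GOF. This ratio was neither planned nor tested, and it restates the opposite calls of its genes.

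**Figure D5:**
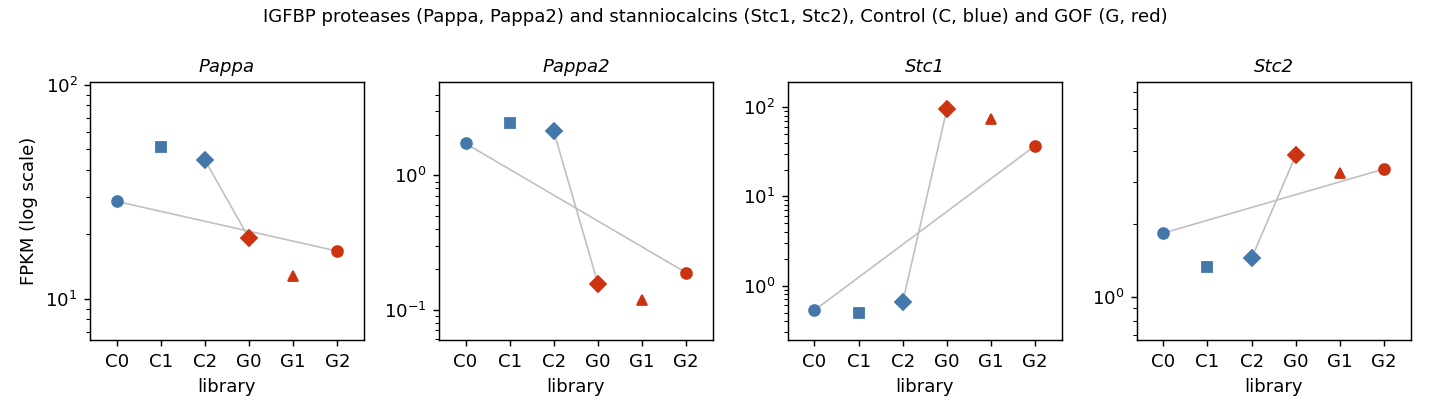
FPKM of Pappa, Pappa2, Stc1 and Stc2 in each library on a log axis. Pappa and Pappa2 are lower and Stc1 and Stc2 higher in every GOF library than in every Control library, with Stc1 at 0.489 to 0.652 in Control and 36.9 to 94.9 in GOF.

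Grb10, an imprinted adaptor that restrains signalling from IGF1R and the insulin receptor, had 114, 145 and 147 FPKM in Control and 47.2, 49.8 and 49.1 in GOF. The GOF cultures lay close together and below the controls, with a log2 difference of -1.48 (SE 0.14, adjusted p = 0.000666). Its relative Grb14 had 5.37, 6.67 and 10.3 FPKM in Control and 20.7, 19.8 and 9.79 in GOF. GOF replicate 2 was inside the Control range, and the log2 difference of 1.22 (SE 0.34, adjusted p = 0.0399) was no longer called in 8 of 15 alternatives. These included leaving out Control replicate 0 (1.06), Control replicate 1 (1.14), GOF replicate 0 (1.05) or GOF replicate 1 (1.05). Irs3, an insulin receptor substrate, was at 0.335 to 0.588 FPKM in Control and 0.0743 to 0.166 in GOF, with a log2 difference of -1.71 (SE 0.44, adjusted p = 0.0314) that was lost in 8 of 14 alternatives. These included leaving out Control replicate 1 (-1.37), Control replicate 2 (-1.88) or GOF replicates 0, 1 and 2 in turn (-1.89, -1.41 and -1.89). Igfbp1, seen at 0 fragments in all 6 libraries and named after its values were seen, lies 3539 bases from Igfbp3. A count of 0 allows up to 3 fragments per library, for counting error only.

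Of the regulators not called, the 5 with the highest mean FPKM were H19, Htra1, Shc1, Igf2bp2 and Igf2bp3. H19, a noncoding RNA 72622 bases from Igf2 and expressed from the opposite parental allele, had 155, 187 and 144 FPKM in Control and 28.9, 167 and 45.2 in GOF. GOF replicate 1, the culture with the highest Igf2, lay inside the Control range and the other GOF cultures below it. The log2 difference was -1.07 (adjusted p = 0.233), and without GOF replicate 1 it was -2.14 with an adjusted p of 0.00667. With animal as a block H19 was called lower, at -2.03 with an adjusted p of 0.000737, and within the animals it was -2.31 and -1.77. Htra1, a secreted protease, had 115 to 141 FPKM in Control and 144 to 174 in GOF (0.36 on the log2 scale, adjusted p = 0.0854). The adaptor Shc1 and the RNA-binding Igf2bp2 and Igf2bp3 differed by -0.31, -0.13 and -0.16 on the log2 scale, with adjusted p of 0.139, 0.671 and 0.437.

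Below the receptor, the PI3K-Akt branch was examined as 21 genes, all tested. 1 was called, Pik3cb, a catalytic subunit of PI3K, where 12.3% of all genes were called. Pik3cb had 1.14, 1.58 and 1.47 FPKM in Control and 3.80, 2.93 and 4.81 in GOF, with every GOF culture above the controls and a log2 difference of 1.46 (SE 0.20, adjusted p = 0.00261). None was called lower by edgeR or DESeq2. At an unadjusted p under 0.05, 2 were higher and 2 lower, against 2728 and 2671 of the 15462 genes tested. The median over the 21 genes was 0.13 on the log2 scale. Genes of the branch with high FPKM that were not called included Eif4ebp1, Akt1, Akt2 and Rps6kb1, the S6 kinase. Rps6kb1 had 33.9 to 37.2 FPKM in Control and 24.6 to 29.3 in GOF, a log2 difference of -0.45 with an adjusted p of 0.017 and a fold under 2. Akt1, at 144 to 161 FPKM in both groups, had an adjusted p of 0.837.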

How the data were processed

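RNA-seq of 3 Control and 3 GOF cultures was used, grouped by their sample titles. Per the submitters' processing notes reads were mapped to mm10 with TopHat, and Cuffdiff was run. The authors deposited Cuffdiff's estimated counts, unscaled fragments per gene and library. They also deposited FPKM, which Cuffdiff scales by transcript length and between libraries. Whether counting used strand is not given in the sources used here. A further 3 columns of per-library values, the lncRNA table and isoform levels were not used, and 32 genes whose estimate failed in a library were left out.

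GENCODE M21 (GRCm38, that is mm10) held 97.9% of the 41126 gene identifiers. Estimated counts, of which 4.95% were not whole, were rounded and fitted in R 4.3.3 with edgeR 4.0.16 (TMM, filterByExpr, quasi-likelihood test, Benjamini-Hochberg adjustment over 15462 genes). A call needs an adjusted p under 0.05 and a fold over 2. Fold changes and adjusted p are edgeR's unless another tool is named. Totals of 35980831 to 42834467 fragments limit precision by counting error, while the spread between cultures sets the standard errors. FPKM were compared with an exact, two-sided permutation test. The fit was tested on simulated data. Alternatives were DESeq2 1.42.0, library totals, scaling by the upper quartile, all genes kept whatever their counts, genes kept only at 1 FPKM or more in 3 libraries, limma 3.58.1 on log2(FPKM + 1) and log2(FPKM + 0.1), a replicate block (label number, or animal), and leaving out single libraries.

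All members are named, as are the called genes of the regulator and PI3K-Akt lists and up to 5 others of each with the highest mean FPKM, the 3 genes most like each ligand, and the checks Ctnnb1 and Axin2. Of these, 1 gene is left out of the text. The members and lists were chosen with earlier results of these data known. Deviations from group means correlated at -0.41, 0.0539 and -0.441 between cultures with the same label number, so the numbers do not pair cultures, and at 0.408 and 0.46 between cultures of the same animal. The block by animal leaves 1 residual degree of freedom.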

Additional observations from a re-analysis of the deposited data

How the results depend on the processing

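Igfbp2 and Igfbp3 were called in all 15 alternatives. Of 150 alternative values over the 10 members, 139 kept their direction and their call, and 0 changed direction. The other 11 (of Igf1, Igfbp5 and Igfbp6) became called in the same direction. Among values that stayed uncalled, some of Igf1, Igf1r, Igf2r and Igfbp4 had an adjusted p under 0.05 with a fold under 2. The 2 members called became 4 with DESeq2, 4 with no filter on low counts and 4 with a replicate block by animal, Igfbp5 and Igfbp6 being the additions, and 2 to 3 with a library left out. Of the 15462 genes, DESeq2 called 1117 higher and 926 lower, where edgeR called 1034 and 872. For the other settings the share of all genes called is not given here, so their counts describe the members only. The replicate block by label number called 2 members, 5 regulators and 1 PI3K-Akt gene. The numbers pair no cultures. The 7 regulators called became 4 with limma on log2(FPKM + 1) and were 5 to 7 with a library left out. The difference in the Igfbp2 share of binding protein FPKM, 34.6 percentage points, was 27.4 to 38.8 with a library left out and 69.8 without Igfbp7, an alternative chosen after seeing the data. Among uncalled genes Igf2bp2 was -0.25 to 0.04 on the log2 scale with a library left out, above 0 without GOF replicate 2. Akt1 was -0.18 to 0.03, above 0 without Control replicate 0 (0.01) or GOF replicate 1 (0.03), and 0.03 with a replicate block by animal. The causes were not tested.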
